A study of Mus musculus with 8 samples.

Results

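The muscarinic acetylcholine receptor genes Chrm1, Chrm2, Chrm3, Chrm4 and Chrm5 were taken by symbol, and all 5 were found among the 33696 features counted. Their RNA was measured by single-nucleus RNA sequencing (snRNA-seq) of adult mouse retina with 10x Chromium 3′ chemistry. A barcode names the droplet a molecule came from, and a unique molecular identifier (UMI) lets each molecule be counted once. Control libraries (replicates 1 to 4) came from Piezo2f/f mice and conditional knockout libraries (cKO, replicates 10 to 13) from Olig2-cre;Piezo2f/f mice, 4 of each, all from female mice on a C57BL/6J background at 120 days of age, with 6 retinae pooled per library. Both copies of Piezo2, a mechanically activated ion channel gene, were floxed in every animal, and only the cKO carried Cre recombinase. Cre was driven from the Olig2 locus, where the knock-in places it within the gene's single exon on one allele, so cKO animals also had a single intact Olig2 copy. Nuclei were sorted on NeuN and RBPMS protein to enrich retinal ganglion cells (RGCs), the neurons that carry the output of the retina to the brain. Olig2 itself had a UMI in 1 of 21691 RGC-like nuclei.

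Muscarinic receptors are G-protein-coupled receptors for acetylcholine. The Chrm1, Chrm3 and Chrm5 products couple mainly to Gq, which activates phospholipase C, releases calcium from stores through inositol trisphosphate receptors and closes the M-type potassium channels named after these receptors. The Chrm2 and Chrm4 products couple mainly to Gi, which inhibits adenylyl cyclase and opens G-protein-gated potassium channels. In the retina the acetylcholine comes from starburst amacrine cells, which contact RGCs.

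After filtering, 34949 nuclei remained (15883 control, 19066 cKO), at library totals of 35697629 to 60088630 UMIs. RGC-like nuclei numbered 21691 in 33 clusters, and had a median of 4634 to 10950 UMIs by library, with amacrine-like (4186), bipolar-like (2093), rod-like (2045), cone-like (489) and horizontal-like (338) nuclei beside them. The sort marker Rbpms had a UMI in 98.2% of RGC-like, 9.84% of amacrine-like and 4.79% of rod-like nuclei. Cluster 3 (1647 nuclei) had Müller glia markers but was led by the endothelial gene Flt1, and cluster 31 (455 nuclei, 1.05 to 1.54% of a library) had RGC markers but Calb1 among its leading genes. Both are given by number. No 2 libraries shared more than 11 barcodes of nuclei. Piezo2, the targeted gene, was at 12.7 ± 1.61 UMIs per 1000000 (CPM; SD, n = 4) in control and 10.8 ± 2.42 (n = 4) in cKO RGC-like nuclei (exact permutation test, two-sided, p = 0.371). The paper used the retina to look for off-target effects of this Cre driver and reported Olig2 expression as absent there. It also split control RGCs by Piezo2 detection and reported Chrm1 and Chrm2 as enriched in the Piezo2-positive ones. The results below on Piezo2 with Chrm1 and Chrm2 include the same control libraries and are no independent test of that report. Whether Piezo2 was deleted in RGCs was not tested here, and these 3′ counts need not report the loss of internal exons. Each library is a pool, so the p-values measure the spread between pools.

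The 5 genes have very different annotated extents, which sets what the counts can hold. In mouse genome build GRCm39, Chrm3 (ENSMUSG00000046159) spans 485.4 kb at chr13:9925522-10410883 on the minus strand, Chrm2 (ENSMUSG00000045613) spans 140.9 kb at chr6:36364718-36505582 on the plus strand, and Chrm1 (ENSMUSG00000032773) spans 21.3 kb at chr19:8640962-8662278 on the plus strand. Chrm4 (1.44 kb, chr2:91757594-91759033, plus) and Chrm5 (1.599 kb, chr2:112309516-112311114, minus) are annotated in GENCODE M39 with little more than their coding sequence, with 3 bases of UTR each. Whether the reference used for counting held the same models was not checked. If it did, 3′ reads lying outside these models would not have been counted. Levels between genes are therefore given per kb of gene span as well.

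Several long noncoding RNA genes overlap the members. 9330158H04Rik lies on the strand opposite Chrm2 (chr6:36186555-36367574) and shares 2857 bases with it, Gm47405 lies within Chrm3 on the same strand (chr13:10114794-10120902), and Gm26861 crosses the Chrm3 start on the opposite strand. The counting of strand and introns was not given in the sources used here, so reads of these genes may not be separable from those of the receptors. The 250 bases before the annotated Chrm2 start (GRCm39, chr6:36364468-36364717, plus strand) are shown because they lie inside 9330158H04Rik, whose level followed that of Chrm2 across RGC clusters. Capitals mark the dinucleotide CG, which reads the same on both strands.
Chrm2 upstream: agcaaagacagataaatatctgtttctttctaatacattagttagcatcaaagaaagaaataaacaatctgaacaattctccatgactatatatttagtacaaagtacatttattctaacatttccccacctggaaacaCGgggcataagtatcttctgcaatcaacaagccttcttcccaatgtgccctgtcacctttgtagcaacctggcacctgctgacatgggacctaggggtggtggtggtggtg
This window holds 1 CG and 40.4% G and C, and 92.0% of the windows of 21264 protein-coding genes hold at least 1 CG. The median of those windows was 6, and the same stretch before Chrm3 held 12. The match is a description of the letters only.

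Chrm3 was the most abundant receptor RNA in RGC-like nuclei, Chrm2 followed, Chrm1 was low, and Chrm4 and Chrm5 were near the detection limit. Chrm3 was at 236, 257, 274 and 289 CPM in control and 230, 219, 229 and 235 CPM in cKO libraries (mean 246 ± 24.6, SD, n = 8), and 7220 nuclei (33.3%) held at least 1 UMI. Chrm2 was at 53.9, 57.7, 54.5 and 51.2 CPM in control and 49.5, 45.0, 51.5 and 44.1 CPM in cKO libraries (50.9 ± 4.65), with a UMI in 2171 nuclei (10.0%). Chrm1 was at 3.49, 2.98, 3.01 and 3.35 CPM in control and 2.85, 3.90, 4.27 and 3.14 CPM in cKO libraries (3.37 ± 0.496), with a UMI in 445 nuclei (2.05%). The ranges of the 3 genes did not overlap. Summed over libraries and divided by gene span, levels were 0.509 CPM per kb for Chrm3, 0.365 for Chrm2, 0.158 for Chrm1, 0.0566 for Chrm4 and 0.0510 for Chrm5. Per kb of span Chrm3, Chrm2 and Chrm1 thus kept their order with smaller steps. Division by span assumes that reads in introns were counted, which was not known. The annotated exons of Chrm3, Chrm2 and Chrm1 cover 6.25, 6.98 and 7.99 kb. Division by exon length would keep the order without making the steps smaller. Chrm4 and Chrm5 tied at 14 UMIs before this division. RefSeq models (build GRCm38) give them lengths of 7.65 and 57.6 kb, so their values per kb depend on the annotation.

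How many UMIs a positive nucleus held also differed. Of Chrm1-positive nuclei 78.7% held a single UMI and none more than 6, whereas 40.6% of Chrm2-positive and 22.6% of Chrm3-positive nuclei held a single UMI and the highest held 69 and 84. Chrm4 and Chrm5 each had 14 UMIs in 14 RGC-like nuclei. In rod-like nuclei, which are shallower (median of 791 to 1296 UMIs by library), a UMI was found in 1.03% for Chrm3, 0.538% for Chrm2 and 0.0978% for Chrm1. In empty droplets the profile of free RNA held 35.2 CPM of Chrm3 and 19.6 CPM of Chrm2, below RGC-like nuclei in 8 of 8 libraries. Chrm1 was at 6.77 CPM in empty droplets, above RGC-like nuclei in 8 of 8 libraries by 3.39 CPM (exact sign-flip test over libraries, two-sided, p = 0.0078 for each of these 3 genes, the smallest that 8 libraries allow). Free RNA of Chrm1 thus exceeded its mean over RGC-like nuclei. Cone-like nuclei held none of its UMIs, which allows up to 2.61 CPM (3 counts over all libraries, counting error only). Horizontal-like nuclei held 1 Chrm1 UMI, rod-like 2, astrocyte-like 3, cluster 3 also 3, bipolar-like 7 and amacrine-like 71. The part of free RNA in these counts was not tested. Chrm5 was also lower in RGC-like nuclei than in empty droplets (0.0879 against 0.381 CPM, 7 of 8 libraries, exact sign-flip test, p = 0.0234).

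Across retinal classes, the Gq-coupled receptor gene Chrm3 was highest in bipolar-like nuclei, which relay photoreceptor signals, and Chrm2 was spread over amacrine-like, bipolar-like and RGC-like nuclei and cluster 31, whose mean was the highest of the classes and unnamed clusters counted in all 8 libraries (94.9 ± 28.2 CPM, a UMI in 205 of 455 nuclei). Chrm3 ranged from 340 to 714 CPM in bipolar-like nuclei (495 ± 117, n = 8), above RGC-like nuclei in 8 of 8 libraries (exact sign-flip test with Benjamini-Hochberg adjustment over class comparisons, adjusted p = 0.0195). It was 315 ± 33.0 CPM in amacrine-like nuclei, above RGC-like nuclei in 7 of 8 libraries (exact sign-flip test, adjusted p = 0.0322). In rod-like (23.8 ± 44.7 CPM), cone-like (14.0 ± 24.3) and cluster 3 nuclei (67.5 ± 47.0) it was lower than in RGC-like nuclei in 8 of 8 libraries. The rod-like mean was 8.15 CPM without control replicate 4 and the cone-like mean 5.56 CPM without cKO replicate 11. RGC-like nuclei were therefore at neither extreme for Chrm3.

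Chrm2 was 67.7 ± 19.5 CPM in amacrine-like nuclei, above RGC-like nuclei in 7 of 8 libraries (exact sign-flip test, adjusted p = 0.0322). The 63.6 ± 23.4 CPM of bipolar-like nuclei could not be told from RGC-like nuclei (exact sign-flip test, adjusted p = 0.213). Rod-like, cone-like and cluster 3 nuclei held 4.33, 3.56 and 2.27 CPM of Chrm2 and were lower in 8 of 8 libraries (cone-like 0.997 CPM without control replicate 1, cluster 3 0.940 CPM without cKO replicate 13). Chrm1 was 2.94 ± 1.37 CPM in amacrine-like nuclei, which did not pass against RGC-like nuclei (exact sign-flip test, adjusted p = 0.47), and 0.981 ± 1.23 CPM in bipolar-like nuclei, lower in 7 of 8 libraries (exact sign-flip test, adjusted p = 0.0322). Against all other named classes pooled, no receptor passed (exact sign-flip test, adjusted p = 0.117 for Chrm1, 0.361 for Chrm2 and 0.0781 for Chrm3). Chrm2 and Chrm3 were lower in RGC-like nuclei past the threshold once nuclei were thinned to 2000 UMIs. Thinning left out nuclei with fewer UMIs, and rod-like nuclei had a median of 791 to 1296 by library. The thinned comparison was thus made on a different set of nuclei. Of the class comparisons for Chrm1, Chrm2 and Chrm3, 13 passed with all UMIs and 6 with thinned nuclei. Thinned rod-like nuclei were counted in 5 libraries. The share of all genes that pass such comparisons was not computed.

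**Figure D1:**
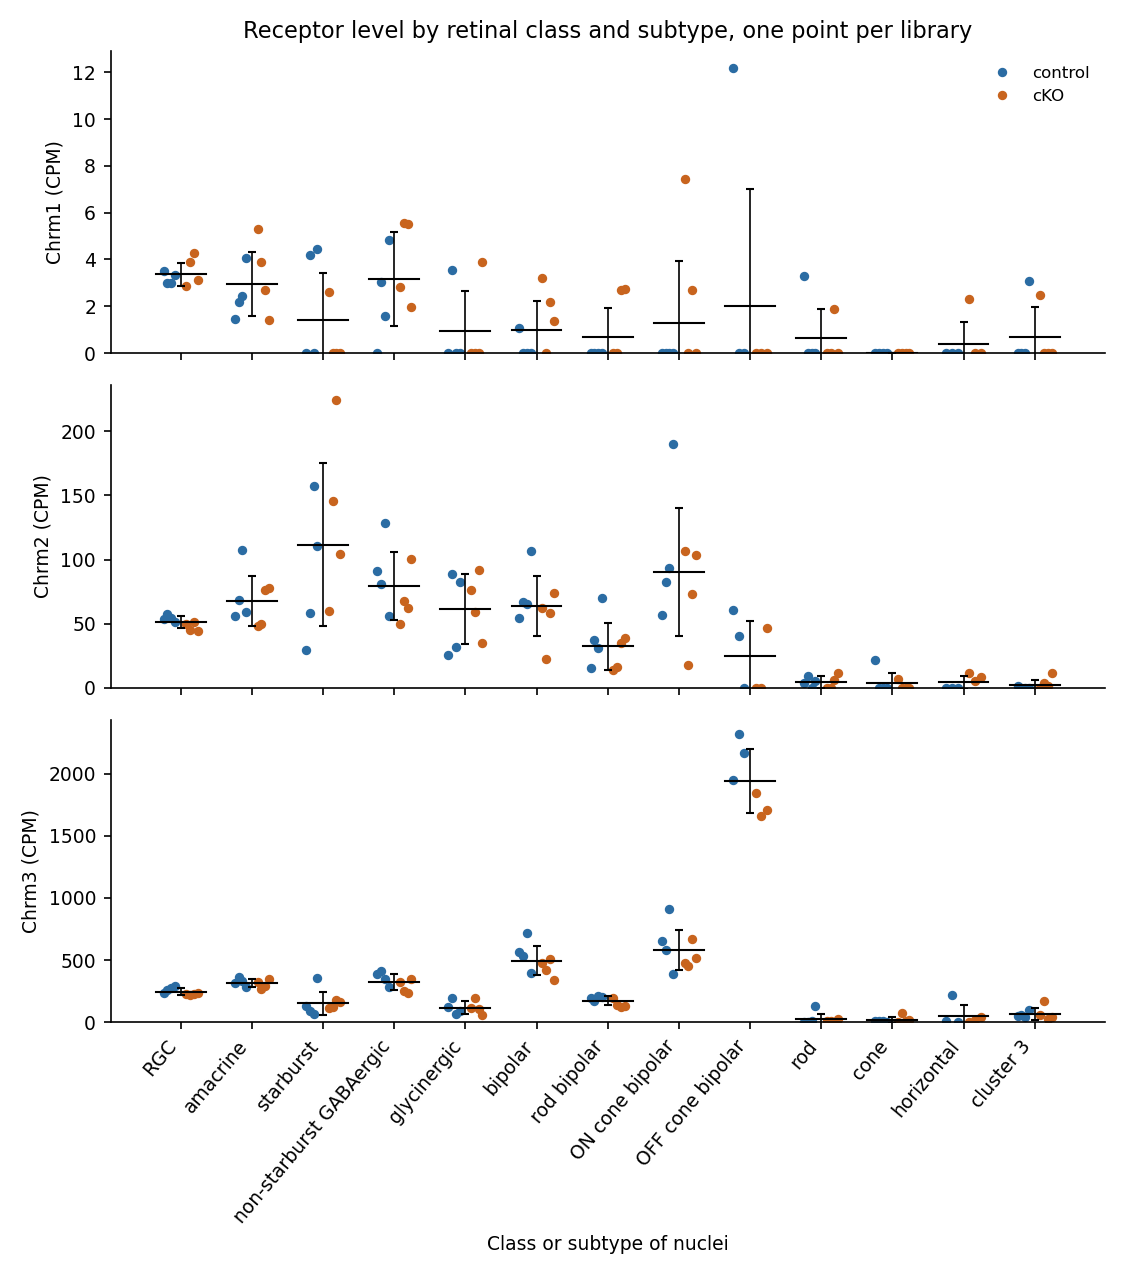
Level of Chrm1, Chrm2 and Chrm3 (CPM) by retinal class and subtype, 1 point per library in the colour of its genotype, with the mean (line) and SD (bar). Chrm3 of bipolar-like nuclei (340 to 714 CPM) lies above that of RGC-like nuclei (219 to 289 CPM), and OFF cone bipolar-like nuclei stand highest (1659 to 2317 CPM).

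Within these classes the levels differed by subtype, each set by at least 2 UMIs of its markers (Chat, Slc5a7 and Slc18a3 for starburst, Gad1 and Gad2 for GABAergic, Slc6a9 for glycinergic, Prkca for rod bipolar, Grm6 and Trpm1 for ON cone bipolar and Grik1, with none of the ON markers, for OFF cone bipolar nuclei). OFF cone bipolar-like nuclei, which respond to light decrements, had the highest Chrm3 of any subtype, 1942 ± 259 CPM in 6 libraries (lowest 1659, median 1898, highest 2317), with a UMI in 114 of 145 nuclei. Its 3 control libraries (1947, 2317 and 2169 CPM) were all above its 3 cKO libraries (1848, 1659 and 1710 CPM), but the libraries left out for holding 10 or fewer of these nuclei had 1865 (control replicate 4, 7 nuclei) and 2415 CPM (cKO replicate 13, 6 nuclei), so the groups overlapped when all were counted. ON cone bipolar-like nuclei followed at 580 ± 163 CPM (391 to 908), and rod bipolar-like nuclei had 171 ± 35.8 CPM (121 to 207). The 3 bipolar subtypes did not overlap between libraries for Chrm3. Non-starburst GABAergic amacrine-like nuclei (322 ± 62.9 CPM, 232 to 409) overlapped with RGC-like nuclei, and with ON cone bipolar-like nuclei at the upper end. Rod bipolar-like, starburst-like (152 ± 91.2) and glycinergic amacrine-like nuclei (117 ± 52.1) overlapped with each other. A Chrm3 UMI was found in 24 of 250 starburst-like nuclei, which held 247 UMIs, and all 14 UMIs of control replicate 3 lay in 1 nucleus. In glycinergic nuclei it was found in 66 of 446 and in rod bipolar-like nuclei in 86 of 856.

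For Chrm2, the order ran from starburst-like nuclei, the acetylcholine-releasing cells (111 ± 63.7 CPM, 29.4 to 225), over ON cone bipolar-like (90.4 ± 49.8), GABAergic (79.5 ± 26.4) and glycinergic nuclei (61.4 ± 27.2) to RGC-like, rod bipolar-like (32.2 ± 18.3) and OFF cone bipolar-like nuclei (24.6 ± 27.8). Every neighbouring pair in that order overlapped between libraries. The subtype with the highest Chrm3 was thus the one with the lowest Chrm2 mean of those listed. Chrm4 had 1 UMI in amacrine-like nuclei and none in the other non-RGC classes, and Chrm5 had 8 UMIs in amacrine-like nuclei (0.319 CPM, under the 0.381 CPM of empty droplets) and none elsewhere. A count of 0 allows up to 0.475 CPM in bipolar-like, 1.21 in rod-like and 2.61 in cone-like nuclei (3 counts over all libraries, counting error only), so levels like those of RGC-like nuclei were not detectable there.

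RGCs comprise many types, and nuclei were grouped by at least 2 UMIs of a marker gene. Receptor UMIs did not enter the gates. The gate genes, Ppp1r1c among them, were however chosen with earlier results of these data known, so the gates are not independent of these data. Of 12 such gates, 10 held enough nuclei. Gates overlap: 10017 RGC-like nuclei fell in 1 gate, 4274 in more than 1 and 7400 in none. The 3 abundant receptors had different patterns over these gates, and 27 of their differences between nuclei inside and outside a gate passed the threshold. The count was 16 with gates of at least 3 UMIs and 7 after thinning to 2000 UMIs, all in the Foxp2, Cartpt and Jam2 gates. The share of all genes that pass such tests was not computed, so the count of 27 is not read as particular to the receptors. With gates remade on thinned UMIs, 3 libraries remained for Ppp1r1c and 4 for Spp1, too few for any difference to pass.

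Chrm1 and Chrm2 were both high in the Ppp1r1c gate (1004 nuclei; Ppp1r1c encodes a protein phosphatase inhibitor subunit). Chrm1 there had a lowest, median and highest value of 17.5, 24.1 and 34.9 CPM, against a mean of 1.57 outside. Chrm2 had 150.5, 250.3 and 294 CPM against 35.6 outside. Both were higher inside in 8 of 8 libraries with no overlap (exact sign-flip test, adjusted p = 0.0167 for each). Ppp1r1c was chosen as a gate with earlier results of these data known, so the p-values of this gate are no independent support. Chrm3 went the other way, at 148 ± 52.9 CPM inside and 254 ± 24.3 outside (lower in 8 of 8, exact sign-flip test, adjusted p = 0.0167). In the 3 libraries left after thinning, Chrm1 (53.0 against 2.51 CPM) and Chrm2 (418 against 49.6) were higher and Chrm3 (126 against 224.5) lower inside in each. Piezo2 was 56.3 CPM inside and 8.03 outside with all UMIs.

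The Spp1 gate (764 nuclei), which marks alpha RGCs, separated Chrm1 from Chrm2. Chrm1 was 10.0 ± 3.32 CPM inside and 2.85 outside, while Chrm2 was 10.1 ± 16.1 inside (median 3.86, and a mean of 4.69 without control replicate 1 at 48.1) and 54.2 outside and Chrm3 was 123 ± 22.7 inside and 256 outside (each in 8 of 8 libraries, exact sign-flip test, adjusted p = 0.0167). In the 4 libraries left after thinning Chrm1 was higher inside in 1 and lower in 3. Of the 14 Chrm5 UMIs in RGC-like nuclei, 9 were in this gate. Each library had 1 or 2 there, a mean of 0.819 CPM, while the median library outside the gate had none (0.0343 CPM on average) and empty droplets had 0.381 CPM. With so few UMIs no difference is read from these values.

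Chrm3 was high in the Foxp2 gate (3764 nuclei), the transcription factor of F-type RGCs, and in the Cartpt gate (4553 nuclei), a peptide gene of direction-selective RGCs. In the Foxp2 gate its lowest, median and highest values were 286.5, 354 and 523 CPM against a mean of 222 outside, and in the Cartpt gate 335.5, 359 and 469 against 204. Both were higher inside in 8 of 8 libraries (exact sign-flip test, adjusted p = 0.0167). Chrm1 (0.384 against 3.93 CPM) and Chrm2 (10.0 against 58.5) were lower in the Foxp2 gate in 8 of 8 libraries. In the Cartpt gate Chrm2 was 27.2 inside and 57.8 outside (lower in 8 of 8), and Chrm1 was 2.10 and 3.75 (lower in 7 of 8, exact sign-flip test, adjusted p = 0.0302), a call that 10 of 15 alternatives ended. The Foxp2 and Cartpt gates thus differed from their outside in the opposite direction to the Ppp1r1c gate for all 3 genes.

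Nuclei with markers of intrinsically photosensitive RGCs had less Chrm3 than other RGC-like nuclei. In the Opn4 (melanopsin) gate (327 nuclei) Chrm3 was 71.7 CPM (lowest 30.4, median 67.8, highest 112.5) against 250 outside, and Chrm2 was 27.4 against 51.4, a call that 12 of 15 alternatives ended. The Eomes gate (245 nuclei) had 79.4 CPM of Chrm3 and 31.2 of Chrm2, where 10 of 14 alternatives ended the Chrm2 call. Zic1 encodes a transcription factor, and in its gate (233 nuclei) Chrm3 was 30.4 ± 53.2 CPM with a median of 2.25 (13.5 CPM without cKO replicate 10, which had 148.5), and no Chrm1 UMI was found. The Jam2 gate (3592 nuclei) had less Chrm3 inside (180 against 263 CPM), with no difference past the threshold for Chrm1 or Chrm2 (exact sign-flip test, adjusted p = 0.134 and 0.841), although Chrm2 was lower inside once thinned (12.4 against 49.7 CPM, 8 of 8 libraries, exact sign-flip test, adjusted p = 0.0391). The Penk gate (317 nuclei) was the other gate in which a higher Chrm2 level passed, 69.4 against 50.6 CPM (7 of 8 libraries, exact sign-flip test, adjusted p = 0.0426), but 12 of 14 alternatives, most of which left out 1 library, ended that call.

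**Figure D2:**
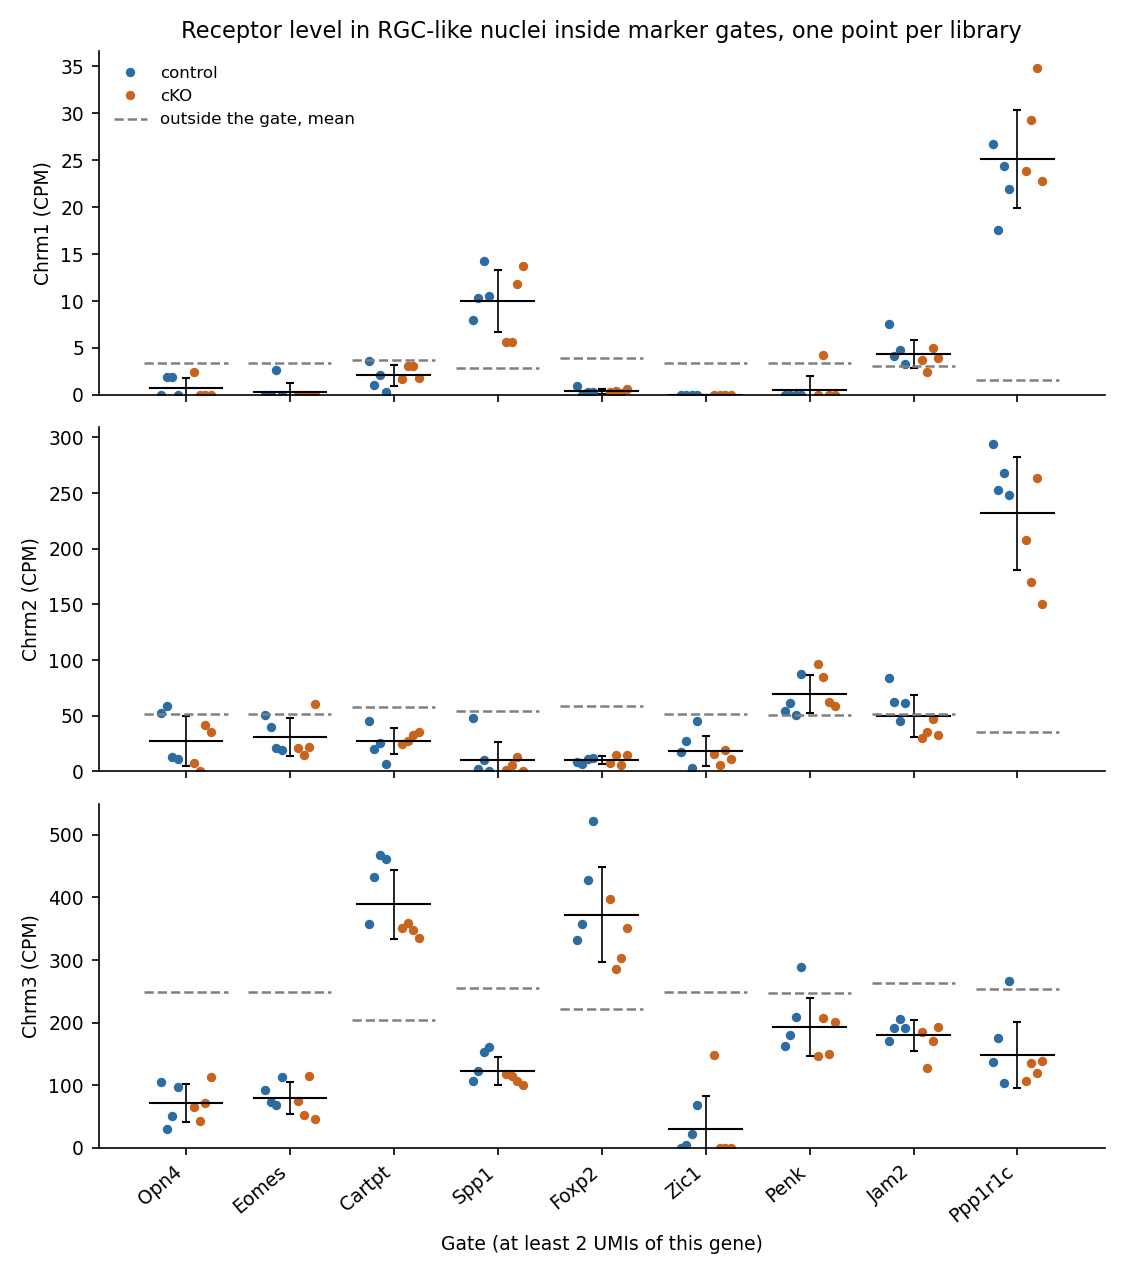
Level of Chrm1, Chrm2 and Chrm3 (CPM) in RGC-like nuclei inside marker gates, 1 point per library, with the mean (line), SD (bar) and the mean of nuclei outside the gate (dashed line). Chrm1 and Chrm2 stand highest in the Ppp1r1c gate (means 25.2 and 232 CPM) and Chrm3 in the Cartpt and Foxp2 gates (389 and 373 CPM).

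Clusters of RGC-like nuclei, made with the 5 receptor genes and Piezo2 kept out of the genes clustered on, showed each receptor concentrated in a few of them. These levels are descriptions and were not tested. The overlapping noncoding genes were not kept out, so receptor reads counted under them may have shaped the clusters. Of 578 Chrm1 UMIs, 80.5% lay in clusters 26, 50 and 7, which held 7.501% of RGC-like nuclei. Levels there were 35.4, 50.2 and 16.8 CPM against a median of 0.412 CPM over 33 clusters, and 5 clusters had none. Of 8823 Chrm2 UMIs, 78.5% lay in clusters 7, 26 and 44 (8.10% of nuclei), at 727, 187 and 275 CPM against a median of 4.92. Clusters 7 and 26 thus held much of both receptors, whereas cluster 50 held Chrm1 with little Chrm3 (5.81 CPM).

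Chrm3 was broader, with 47.1% of 42418 UMIs in clusters 16, 15 and 38 (8.36% of nuclei) and a median of 81.3 CPM over clusters. Cluster 16 had 2028 CPM and a Chrm3 UMI in 695 of 696 nuclei. Cluster 37 had 1201 CPM, and clusters 15, 38 and 44 had 862, 840 and 809 CPM. Cluster 44 was thus high in both Chrm2 and Chrm3, while cluster 7, the highest for Chrm2, had 15.8 to 47.3 CPM of Chrm3 over libraries. Piezo2 was 95.4 CPM in cluster 7, 90.3 in cluster 26 and 15.4 in cluster 50. Chrm5 had 7 of its 14 UMIs in cluster 50, and Chrm4 had 5 of 14 in cluster 15.

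**Figure D3:**
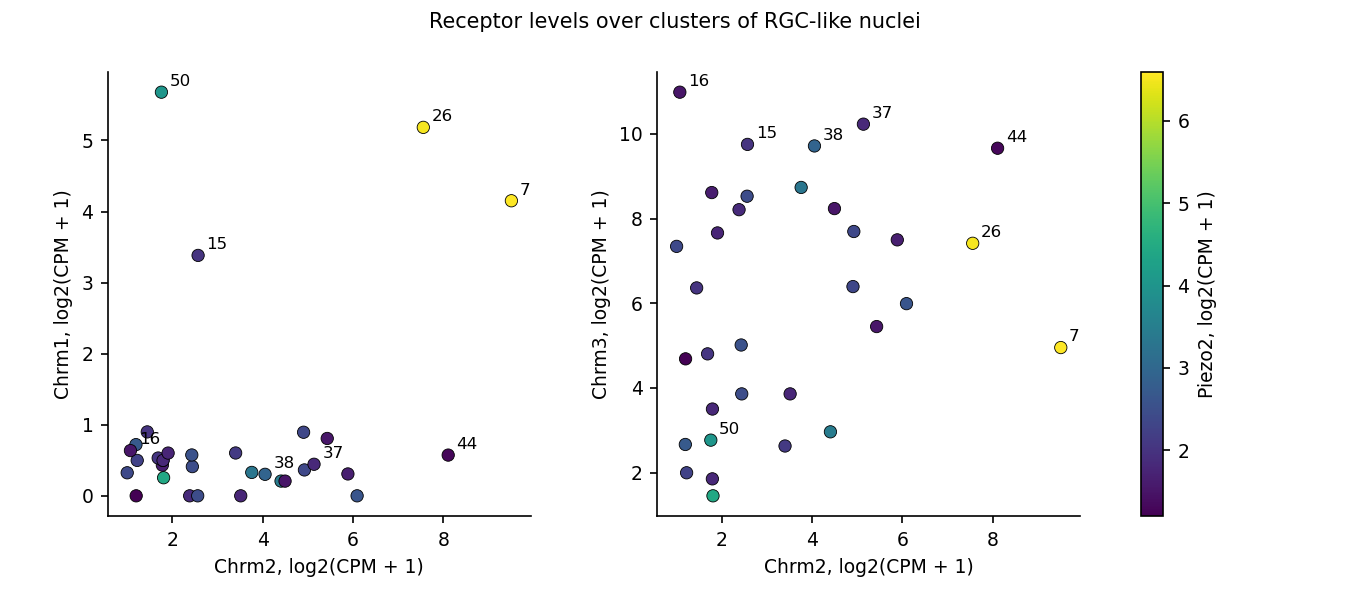
Levels in the 33 RGC-like clusters on a log2(CPM + 1) scale, 1 point per cluster, with Chrm2 on the horizontal axis, Chrm1 (left) or Chrm3 (right) on the vertical axis and Piezo2 as colour. Clusters 7 and 26 are high in Chrm1, Chrm2 and Piezo2, cluster 50 is highest in Chrm1 (50.2 CPM) and low in Chrm2 and Chrm3, cluster 44 is high in Chrm2 and Chrm3, and cluster 16 is highest in Chrm3 (2028 CPM).

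The genes whose levels most resembled each receptor over the 33 clusters were picked by Pearson's r of log2(CPM + 1) among 15868 genes, as a description over clusters that share libraries and depth. For Chrm1 they were Gm26676 (r = 0.837) and Ttn (0.835), the giant sarcomere protein gene. For Chrm2 they were the overlapping 9330158H04Rik (0.815), Prdm16 (0.657) and Gak (0.644), and for Chrm3 the overlapping Gm47405 (0.945) and Gm26861 (0.779), followed by Sgsm3 (0.695). Among the receptors r was 0.563 between Chrm1 and Chrm5, which had 14 UMIs, 0.295 between Chrm1 and Chrm2, 0.255 between Chrm2 and Chrm3 and -0.047 between Chrm1 and Chrm3. Piezo2 had r = 0.682 with Chrm1, 0.426 with Chrm2 and -0.214 with Chrm3. For Chrm5, with 14 UMIs, Glis3 came first (0.925), then Lancl1 (0.885) and Kcnip2 (0.823), and for Chrm4, also with 14 UMIs, Vhl (0.642), Dynlt2a3 (0.637) and E330013P04Rik (0.632). The overlapping noncoding genes were thus among the closest to both Chrm2 and Chrm3.

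Co-detection in single nuclei showed the same 3 genes in different combinations. Of 21691 RGC-like nuclei, 13050 (60.2%) had no UMI of Chrm1, Chrm2 or Chrm3, 6214 had Chrm3 alone, 1148 had Chrm2 alone and 158 had Chrm1 alone. Chrm2 with Chrm3 was seen in 834, Chrm1 with Chrm2 in 115, Chrm1 with Chrm3 in 98 and all 3 in 74 nuclei. A Piezo2 UMI was found in 4.23% of nuclei with none of the 3 receptors, 3.25% with Chrm3 alone, 15.8% with Chrm1 alone and 22.0% with Chrm2 alone. The share was 11.15% with Chrm2 and Chrm3, 20.4% with Chrm1 and Chrm3, 46.1% with Chrm1 and Chrm2, and 56.8% with all 3. Median depth differed between these classes, from 6325 UMIs with no receptor to 13444 with Chrm1 alone, so each share was set beside that of nuclei without the receptor, standardised to the same depth by deciles of UMIs.

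Chrm2 was found in 38.5, 45.7, 49.1 and 54.5% of Chrm1-positive nuclei of control and 38.3, 37.7, 39.1 and 37.5% of cKO libraries, a mean of 42.6 ± 6.47% against 10.9% in nuclei without Chrm1 standardised to the same depth (189 nuclei with both, higher in 8 of 8 libraries, exact sign-flip test, adjusted p = 0.0234 over 15 pairs). Piezo2 was found in 38.5, 32.9, 29.8 and 40.9% of Chrm1-positive nuclei of control and 31.9, 26.2, 25.3 and 35% of cKO libraries, against 6.97% at matched depth. In Chrm2-positive nuclei Piezo2 had 20.4% against 4.58%, and in Chrm3-positive nuclei 5.01% against 7.58%, lower in 8 of 8 libraries. Chrm3 was found in 39.4% of Chrm1-positive nuclei against 46.8% (lower in 7 of 8, exact sign-flip test, adjusted p = 0.0335), a call that 9 of 13 alternatives ended and 1 more reversed. Chrm3 in Chrm2-positive nuclei had 42.3% against 35.8%, but 9 of 13 alternatives ended that call, its CPM difference there did not pass, and no order is read from it. Most alternatives that ended these Chrm3 calls left out 1 library. With 7 libraries the smallest p of the exact sign-flip test is 0.0156. The differences then stayed at -8.682 to -6.467 points in Chrm1-positive and 5.592 to 7.398 points in Chrm2-positive nuclei.

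These 6 pairs of Chrm1, Chrm2, Chrm3 and Piezo2 passed with all UMIs. Chrm5 in Chrm3-positive nuclei met the threshold too, but 14 nuclei had Chrm5 and 2 had both, so most libraries compared a share with a count of 0, and nothing is read from it. After thinning each nucleus to 2000 UMIs, with shallower nuclei left out, 0 of the 6 passed. Chrm3 in Chrm1-positive nuclei then turned to an excess of 2.86 percentage points, and the excess fell to 15.97 percentage points for Chrm2 in Chrm1-positive nuclei (exact sign-flip test, adjusted p = 0.0781), 7.12 for Piezo2 in Chrm1-positive nuclei (adjusted p = 0.234) and 6.97 for Piezo2 in Chrm2-positive nuclei (adjusted p = 0.0586). The smallest p that 8 libraries allow is 0.0078 (exact sign-flip test). Adjusted over 15 pairs, it passes only where several pairs reach it together. A pair that did not pass was thus not shown to be without a difference.

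**Figure D4:**
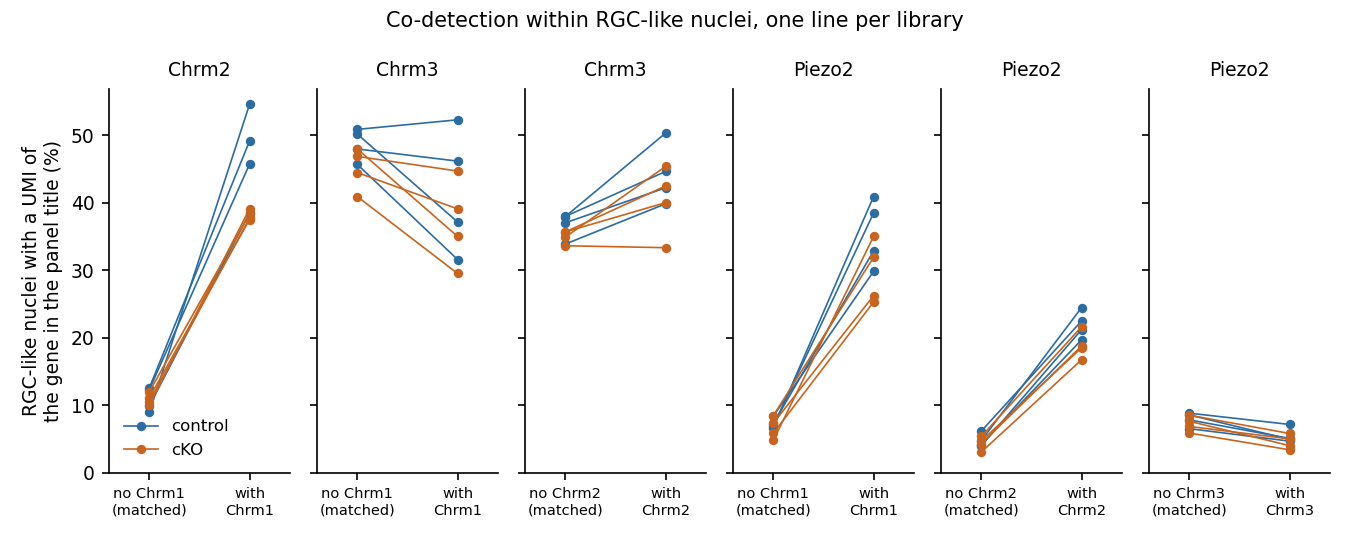
Share of RGC-like nuclei with a UMI of the gene in the panel title (%), 1 line per library from nuclei without the receptor, standardised to the same depth, to nuclei with it. Chrm2 and Piezo2 rise steeply with Chrm1 (from means of 10.9 and 6.97% to 42.6 and 32.6%), and Piezo2 is lower with Chrm3 (5.01 against 7.58%).

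To describe what else these nuclei carried, summed counts of nuclei with and without a UMI of each receptor were fitted with the library as a block (edgeR quasi-likelihood test, Benjamini-Hochberg adjustment; called where the adjusted p was below 0.05 with a log2 fold change beyond 0.5 either way). The split gene was left out, and Chrm4 and Chrm5 did not pass the low-count filter. Positive nuclei were deeper, by a median of 1.70 times for Chrm1, 1.13 for Chrm2, 1.24 for Chrm3 and 1.23 for Piezo2. With nuclei thinned to 2000 UMIs, genes called fell from 886 of 15734 to 556 of 11533 in the Chrm2 split, from 1204 of 16327 to 550 of 12038 in the Chrm3 split and from 794 of 15445 to 265 of 11409 in the Piezo2 split. Thinning left 5 to 23 Chrm1-positive nuclei a library, so the Chrm1 split, with the largest depth gap of these 4, was not fitted that way and the part of depth in its calls was not tested. In the Chrm1 split 13.6% of genes were called. Chrm2 rose to 253 from 43.7 CPM (log2 fold change 2.52, SE 0.10, adjusted p = 4.793e-25), and Chrm3 fell to 142 from 250 CPM (-0.80). In the Chrm2 split 5.63% of genes were called. Chrm1 rose to 12.4 from 2.24 CPM (2.49, SE 0.14), and Chrm3 was 248 and 246 CPM (0.04, SE 0.04, adjusted p = 0.634). In the Chrm3 split 7.37% were called, Chrm2 was lower (36.1 against 60.3 CPM, -0.77, SE 0.04; -0.48 when thinned, under the fold limit) and Chrm1 did not pass (-0.15, adjusted p = 0.465). Piezo2 there was 9.46 against 13.2 CPM (-0.50, under the fold limit). In the Piezo2 split 5.14% were called, with Chrm1 (2.76) and Chrm2 (2.87) higher and Chrm3 lower (-0.86) in Piezo2-positive nuclei. Thinned, Chrm2 (2.64) and Chrm3 (-1.33) were still called there. The Chrm1, Chrm2 and Piezo2 splits share nuclei and are no independent tests of each other.

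The genes that moved most by fold among those called the same way in all libraries are next. Chrm1-positive nuclei had more Glis3 (86.2 against 2.82 CPM, log2 fold change 5.06), a zinc finger transcription factor gene, more 9330154J02Rik (4.58) and Gm39653 (4.51), and less 9330185C12Rik (-5.48). A830092H15Rik and Dab2 had no UMI in them, at least 5.77- and 5.00-fold lower at a floor of 3 counts over the summed nuclei. Chrm2-positive nuclei had more of the overlapping 9330158H04Rik (33.0 against 0.579 CPM, 5.89), Slc7a2, a cationic amino acid transporter gene (4.11), and Npr1, a natriuretic peptide receptor gene (4.06), and less Kcng1, a potassium channel subunit gene (-3.17), Rph3al (-3.14) and Gm52981 (-2.69). Chrm3-positive nuclei had more of the overlapping Gm47405 (8.38 against 0.134 CPM, 5.83), Cdh1, which encodes E-cadherin (3.81), and Gm49542 (3.14), and less 9330185C12Rik (-3.63), Zic1 (-3.20) and BB031773 (-2.94). Dab2 is a clathrin adaptor gene. Piezo2-positive nuclei had more 9330158H04Rik (3.30), Tpbg (3.24) and 9330154J02Rik (3.16), and less Trpc7 (-2.43), Pear1 (-2.17) and Cd1d1 (-2.13).

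Genes of the signalling path were counted in lists. Of 13 genes of the Gq arm (G-protein subunits, phospholipase C, inositol trisphosphate receptors, M-type channels), 12 were tested. In Chrm1-positive nuclei 3 rose, all inositol trisphosphate receptor genes (Itpr2 2.63, SE 0.06; Itpr3 1.38, SE 0.26; Itpr1 0.82), and 2 fell, Kcnq5, an M-type channel subunit gene (-2.93, SE 0.13), and Plcb1, a phospholipase C gene (-0.58). The list's median was 0.00 against -0.01 over all genes, 13.6% of which were called. In Chrm2-positive nuclei Itpr2 rose (2.16) and Kcnq5 (-1.49) and Plcb1 (-0.78) fell, at a list median of -0.04 against 0.00. In that split 5.63% of all genes were called. In Chrm3-positive nuclei Kcnq3, another M-type subunit gene, rose (0.59) and Kcnq5 fell (-2.37), at a median of -0.08 against -0.01, with 7.37% of all genes called. Kcnq5 fell and Itpr2 rose in the Piezo2 split as well (-1.21 and 2.08), where 5.14% of all genes were called. Kcnq5 was thus lower in positive nuclei of all 4 genes.

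The Gi arm (13 genes, all tested) had 1 call up and 4 down in Chrm1-positive nuclei, at a median of -0.18 against -0.01 over all genes, of which 13.6% were called. Kcnj3 rose (0.61), and Kcnj5 (-1.67) and Kcnj6 (-0.97), which encode other G-protein-gated potassium channel subunits, and the adenylyl cyclase genes Adcy1 (-0.68) and Adcy5 (-0.64) fell. No gene of this list was called in the Chrm2 or Chrm3 split, where 5.63 and 7.37% of all genes were, so few calls in a list of 13 are read as no result. Of 12 receptor regulators, 3 were lower in Chrm1-positive nuclei, Rgs4 (-0.81), Rgs9 (-0.72) and Arrb2 (-0.50), where 13.6% of all genes were called. Rgs6 was the 1 call in Chrm2-positive nuclei (-1.02, 5.63% of all genes called) and was also lower in Piezo2-positive nuclei (-0.75, 5.14% of all genes called). Of 5 genes of acetylcholine supply and breakdown, 1 passed the low-count filter in each split and none was called.

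Finally, control and cKO were compared. The edgeR genotype fits called 0.0% of genes in each of RGC-like, amacrine-like, bipolar-like, cluster 3 and photoreceptor-like nuclei, and hence no receptor and no gene of the 4 pathway lists. The fits tested 18036, 13754, 9570, 8575 and 7477 genes. Of these, 619, 497, 307, 261 and 382 had an unadjusted p under 0.05 (edgeR quasi-likelihood test), and DESeq2 called 3, 3, 0, 0 and 24. No genotype effect is read from these counts. In RGC-like nuclei the log2 fold changes of cKO over control were 0.09 (SE 0.17) for Chrm1, -0.26 (SE 0.08) for Chrm2 and -0.27 (SE 0.08) for Chrm3 (adjusted p = 0.988, 0.985 and 0.985). The estimates for Chrm2 and Chrm3 were -0.25 and -0.12 in amacrine-like and -0.36 and -0.39 in bipolar-like nuclei (edgeR, adjusted p = 1.0). Mean levels were lower in cKO in photoreceptor-like nuclei (Chrm2 4.74 and 3.73 CPM, Chrm3 25.4 and 14.5 CPM in control and cKO). In cluster 3 they were higher in cKO (Chrm2 0.373 and 4.16 CPM, Chrm3 62.0 and 73.0 CPM). All classes come from the same pools, so a shared sign is no independent repeat.

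For Chrm3 in RGC-like nuclei the groups were separate but close. The 4 control libraries (236.3 to 289 CPM, 264 ± 22.7) did not overlap with the 4 cKO libraries (219 to 235.4 CPM, 228 ± 6.75), at the smallest p that 4 against 4 allow (exact permutation test, two-sided, p = 0.0286, adjusted p = 0.257 over 18 tests). With this adjustment no single test was able to pass alone. The share of all genes without overlap between the groups was not computed. In 5 alternatives the unadjusted p for Chrm3 rose to 0.0571 (exact permutation test), and in 7 it stayed under 0.05. Those 5 were RGCs taken by marker UMIs and the omission of each cKO library in turn. Leaving out a library leaves fewer assignments and cannot make separate groups overlap, so no loss of separation is read from those omissions. Chrm2 overlapped by 1 library (54.3 ± 2.67 against 47.5 ± 3.52 CPM, exact permutation test, p = 0.0571, adjusted p = 0.343), and Chrm1 overlapped throughout (p = 0.371, exact permutation test). The share of nuclei in the 3 clusters that held the most Chrm3 UMIs was 8.03 to 8.78% in control and 8.20 to 8.94% in cKO libraries. Chrm3 in those clusters was 1049 to 1545 CPM (mean 1352) in control and 1058 to 1197 CPM (mean 1137) in cKO libraries. In all other clusters it was 146 to 170 (mean 154.6) and 124 to 142 CPM (mean 133.5). The cKO mean was thus lower both inside and outside the clusters that carried the most Chrm3. The groups overlapped only inside, through control replicate 1 at 1049 CPM. These last values are descriptions. Summed rod markers (8 genes) in RGC-like nuclei were 245 to 655 CPM in control and 352 to 718 CPM in cKO libraries, and amacrine markers (7 genes) 333 to 389 and 345 to 437 CPM, and their part in the difference was not tested.

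In cluster 31 Chrm2 was 122, 125.5, 126.3 and 90.9 CPM in control and 45.8, 85.6, 85.8 and 77.3 CPM in cKO libraries, with no overlap (exact permutation test, p = 0.0286, adjusted p = 0.257). No genotype fit over all genes was made for cluster 31, so the share of genes without overlap there is not known. Within marker gates, 4 against 4 libraries and adjustment over 30 tests left no single test able to pass alone (exact permutation test, lowest adjusted p = 0.857). The lowest unadjusted p there was 0.0571, for Chrm3 in the Cartpt gate (430 ± 51.1 CPM in control, 349 ± 10.2 in cKO) and Chrm2 in the Jam2 gate (63.3 ± 16.1 and 36.3 ± 7.67). The share of Chrm1-positive nuclei with Piezo2 differed by -5.20 percentage points (exact permutation test, p = 0.229, adjusted p = 0.571; 8.13 points when thinned, so its direction reversed), and that of Chrm2-positive nuclei by -2.64 (p = 0.0571, adjusted p = 0.286, exact permutation test).

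**Figure D5:**
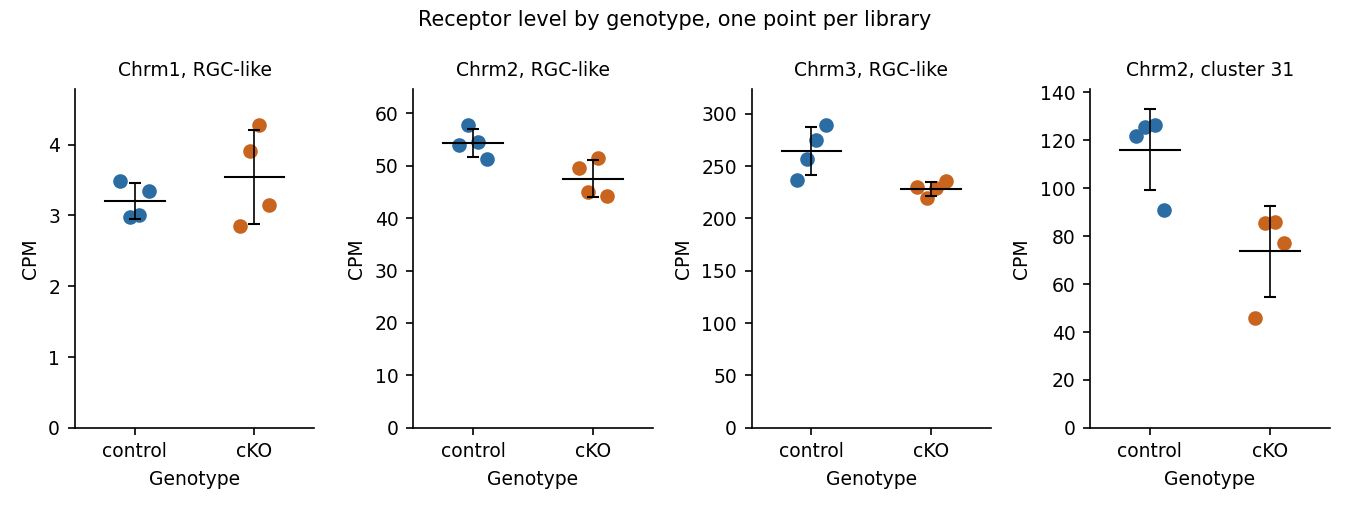
Level of Chrm1, Chrm2 and Chrm3 in RGC-like nuclei and of Chrm2 in cluster 31 (CPM), 1 point per library, with the mean (line) and SD (bar) of control and cKO. Control libraries lie above cKO libraries for Chrm3 in RGC-like nuclei (264 ± 22.7 and 228 ± 6.75 CPM) and for Chrm2 in cluster 31, and the groups overlap for Chrm1 and for Chrm2 in RGC-like nuclei. No difference shown passed after adjustment.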

How the data were processed

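The files the authors deposited hold unnormalised UMI counts of every gene in every barcode of 8 libraries, made per the study's methods with Cell Ranger 7.0.0 and the GRCm39 reference, although the matrix headers name Cell Ranger 4. Free-RNA removal and other later steps of theirs were not in these counts. Of 12695972 barcodes, 45950 were called as nuclei (order-of-magnitude and ambient-profile tests), 9623 failed quality filters and 1378 were removed as doublets (Scrublet, scanpy 1.11.5). Counts were clustered (2000 variable genes without the receptors or Piezo2, 30 components, Leiden resolution 0.7), and classes were named from markers by rules revised after cluster tables were seen. Levels are UMIs per 1000000 summed per library (CPM). Libraries entered with more than 10 nuclei and 1000 UMIs. Tests were exact sign-flip over libraries, exact permutation over 70 assignments, and edgeR 4.0.16 (quasi-likelihood, filterByExpr) or DESeq2 1.42.0 on summed counts, in R 4.3.3, checked on simulated data. Gates required 2 UMIs. The named genes were the 3 with the highest correlation with each receptor over clusters (of genes with at least 200 UMIs), the 3 largest called rises and falls of each split with one direction in every library, the pathway lists, and genes overlapping a receptor. Members, gene lists and tests were chosen with earlier results of these data known. Gene models are GENCODE M39 (GRCm39). Intervals cover counting error only. For 1 gate and 1 correlated gene the values are not reported here, and counts over gates include that gate.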

Additional observations from a re-analysis of the deposited data

How the results depend on the processing

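Over 66 results and 969 alternative values, 15 reversed in direction and 954 did not. The 954 include counts of calls, which have no direction. Many alternatives left out 1 library and so share most of their libraries. Of those 954, 834 also kept their call or stayed within the set limit, 100 lost the call, 3 gained one and 17 counts moved by over 1.5 times. No paired analysis was possible because the replicate numbers of control (1 to 4) and cKO (10 to 13) do not overlap.

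Thinning to 2000 UMIs per nucleus changed class, gate and co-detection calls, and left too few Chrm1-positive nuclei for the Chrm1 split. Nuclei with fewer UMIs were left out, among them 54 control and 367 cKO RGC-like nuclei. Thinned classes were thus compared on other sets of nuclei than before. Differences between RGC-like and other pooled classes became -0.5806 CPM for Chrm1 (reversed from 1.06), -15.39 for Chrm2 and -83.53 for Chrm3, both then past the threshold. Class differences past the threshold fell from 13 to 6, gate differences from 27 to 7 (16 with gates of 3 UMIs) and co-detection pairs among Chrm1, Chrm2, Chrm3 and Piezo2 from 6 to 0. The thinned excess was 15.97 points for Chrm2 in Chrm1-positive nuclei, 2.862 for Chrm3 in Chrm1-positive (reversed from -7.42), 7.119 for Piezo2 in Chrm1-positive, 2.024 for Chrm3 in Chrm2-positive, 6.974 for Piezo2 in Chrm2-positive and -0.8715 for Piezo2 in Chrm3-positive nuclei. Genes called by status fell to 556 for Chrm2, 550 for Chrm3 and 265 for Piezo2. The cKO minus control difference reversed to 8.127 for Piezo2 in Chrm1-positive (from -5.20) and to 0.1598 in Chrm3-positive nuclei. Thinned Chrm3 in the Chrm2 split was -0.17. Thinned gates kept fewer libraries (3 for Ppp1r1c, 4 for Spp1), and Chrm1 was then lower inside the Spp1 gate in 3 of 4. The cause of these changes was not tested.

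With RGCs taken by marker UMIs, Chrm3 in Chrm1-positive nuclei was -1.711 and in Chrm2-positive 4.42, Piezo2 in Chrm3-positive differed by 0.3411, Chrm3 by genotype was -37.23 CPM, Chrm3 in the Chrm2 split -0.08142 and Chrm1 in the Chrm3 split 0.07871. With cluster 31 counted as RGC-like, an alternative chosen after seeing the data, Chrm3 in Chrm1-positive nuclei was -6.821 and in the Chrm2 split -0.06836. With no low-count filter the latter was -0.0003857. Genotype calls then were 18 of 26053 genes in amacrine-like, 26 of 22519 in bipolar-like, 94 of 21742 in cluster 3 and 83 of 21416 in photoreceptor-like nuclei. DESeq2 called 3 in RGC-like, 3 in amacrine-like and 24 in photoreceptor-like nuclei, and stricter doublet removal 2 in the last.

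Leaving out 1 library at a time gave -8.682 to -6.467 points for Chrm3 in Chrm1-positive nuclei, 5.592 to 7.398 in Chrm2-positive nuclei, -8.137 to -5.695 CPM for Chrm2 and -45.02 to -27.48 CPM for Chrm3 by genotype in RGC-like nuclei, and 0 to 5 calls in photoreceptor-like nuclei (5 without control replicate 4). The Chrm1 genotype log2 fold change ran from -0.03438 (without cKO replicate 12) to 0.1999, Chrm3 in the Chrm2 split from -0.01709 (without control replicate 4) to 0.05617, and the Piezo2 difference in Chrm3-positive nuclei from -0.5752 to 0.125. Without control replicate 1, control replicate 4 or cKO replicate 11 the last was 0.01777, 0.07501 or 0.125. Leaving out 1 library raises the smallest p of the exact sign-flip test from 0.0078 to 0.0156. A call may therefore end while its value changes little.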

Other observations

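Cluster 53 (85 nuclei, 80% from 1 library, both contributing libraries control) had collagen IV and lens genes such as Col4a3, Crygs and Gja3 among its leading genes and was left unnamed. Its Chrm3 level was 950.5 and 970 CPM in control replicates 2 and 3, with a UMI in 73 of 85 nuclei, and its Chrm1 level was 11.7 and 33.8 CPM. Astrocyte-like nuclei, counted in 3 libraries with 52 nuclei, had 79.7 ± 37.2 CPM of Chrm3 and no Chrm2 UMI. Horizontal-like nuclei (6 libraries, 327 nuclei) had 48.6 ± 85.7 CPM of Chrm3 (14.2 without control replicate 3) and 4.19 ± 5.02 CPM of Chrm2. Cluster 1, unnamed and shallow (1846 nuclei), had 236 ± 37.4 CPM of Chrm3 and 33.0 ± 28.3 CPM of Chrm2. None of these values was tested.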
